A study of Arabidopsis thaliana with 36 samples.

Results

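The genes described are the 28 nuclear loci of Arabidopsis thaliana that the deposited annotation describes by the word photosystem and that do not belong to the light-harvesting antenna, of 33279 loci in all. They were picked by that word in the description of each locus, after 10 other loci were removed, chiefly antenna proteins with light harvesting, LHC or chlorophyll a in the description. By role they are 12 subunits of photosystem I, 6 small subunits of photosystem II, 4 assembly or repair factors of photosystem II, 4 relatives of the PsbP or PsbO proteins, and 2 loci described by location alone or as a pseudogene. Of the 28 loci, 27 reached 1 FPKM in at least 3 libraries and were tested. AT4G37230, a PsbO family member, was at or below 0.903 FPKM in every library of 35 DAS and 0.843 FPKM in every library of 21 DAS and was not tested.

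The leaves came from plants of the genotype Col-0, a natural accession, at 35 and at 21 days after sowing (DAS). At each age they were taken at 6 times of day, ZT1, 5, 9, 13, 17 and 21, where ZT counts the hours since lights on. All plants grew at 22 °C in 16 h of light at 100 µmol m−2 s−1 and 8 h of dark, so ZT17 and ZT21 were dark. Each of the 12 combinations has 3 libraries of polyadenylated RNA, called biological replicates in the series text and batches 1 to 3 in the titles. The series text names the third leaf, while the sample labels give leaves 3rd-4th of the rosette. Whether leaves of several plants were pooled is not given in the sources used here, so p-values measure the spread between these libraries. The series title asks how the daily timetable of expression moves with age, and the comparisons below follow from it: 35 against 21 DAS, dark against light within that age effect, and the daily rhythm at each age.

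Photosystem II splits water and passes electrons to plastoquinone, and photosystem I takes them from plastocyanin and passes them to ferredoxin. The pigment-binding core proteins of both are encoded in the plastid, while most of the small subunits around them are encoded in the nucleus and imported. On the stromal side of photosystem I, PsaD and PsaE dock ferredoxin. On the lumenal side PsaF and PsaN act with plastocyanin. PsaG and PsaK sit at the membrane edge beside the antenna, and PsaH, PsaL and PsaO form the face to which the mobile antenna of photosystem II binds in state transitions. PsaD, PsaE and PsaH of photosystem I are each made from a pair of genes. In senescing leaves the photosynthetic apparatus is dismantled and its nitrogen is moved to other organs.

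For 26 loci a stretch of 250 bases before the gene start that RefSeq annotates was read from the TAIR10.1 genome of RefSeq. Shown here are the stretches of the PSAE and PSAH gene pairs, because the copies of each pair differed in their age effect, and that of PSBT, which had the lowest log2 fold change of all. They run 5′ to 3′ along the strand of the gene, and the base next to the RefSeq gene start is the last. That start lies upstream of the start in the deposited table in 21 of the 26 loci, by a median of 64.0 bases over the 26 and at most 396 (PSB27-1), and by 100 bases in PSAE1, 113 in PSAH1, 38 in PSAH2, 40 in PSBT and 0 in PSAE2. Capitals mark every match, on either strand, to 5 motifs known from light-regulated or clock-regulated plant genes: the G-box core CACGTG, the I-box GATAAG, the site CCAATC bound by GLK factors, the evening element AAAATATCT and the CCA1 binding site AAAAATCT.
PSAE1 upstream (chr4:14204062-14204311, minus strand): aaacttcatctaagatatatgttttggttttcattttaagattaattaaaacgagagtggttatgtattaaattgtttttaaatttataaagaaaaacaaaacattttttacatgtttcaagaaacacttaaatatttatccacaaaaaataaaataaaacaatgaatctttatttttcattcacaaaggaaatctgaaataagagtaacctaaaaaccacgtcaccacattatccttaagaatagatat
PSAE2 upstream (chr2:8736484-8736733, plus strand): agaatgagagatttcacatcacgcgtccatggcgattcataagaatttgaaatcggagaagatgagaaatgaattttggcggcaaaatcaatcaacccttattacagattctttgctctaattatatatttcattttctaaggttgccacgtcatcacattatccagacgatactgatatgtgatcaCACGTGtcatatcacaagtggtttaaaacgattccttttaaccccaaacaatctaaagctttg
PSAH1 upstream (chr3:5469595-5469844, minus strand): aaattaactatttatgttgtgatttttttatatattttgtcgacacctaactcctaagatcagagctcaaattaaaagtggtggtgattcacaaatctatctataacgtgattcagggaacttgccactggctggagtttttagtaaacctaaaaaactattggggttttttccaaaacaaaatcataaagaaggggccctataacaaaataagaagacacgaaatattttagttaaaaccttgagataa
PSAH2 upstream (chr1:19454548-19454797, plus strand): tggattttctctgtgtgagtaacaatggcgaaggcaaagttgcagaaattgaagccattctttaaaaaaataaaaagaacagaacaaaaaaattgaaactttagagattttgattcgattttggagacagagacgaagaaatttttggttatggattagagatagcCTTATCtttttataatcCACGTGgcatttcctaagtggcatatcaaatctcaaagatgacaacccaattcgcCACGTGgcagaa
PSBT upstream (chr3:7377227-7377476, minus strand): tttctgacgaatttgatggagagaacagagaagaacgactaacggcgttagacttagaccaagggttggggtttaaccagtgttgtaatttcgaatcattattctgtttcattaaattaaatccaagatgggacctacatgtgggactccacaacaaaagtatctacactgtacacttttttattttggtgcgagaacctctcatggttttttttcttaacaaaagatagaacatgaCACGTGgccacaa
PSAH2 has CACGTG starting 67 and 12 bases before the RefSeq gene start, and the I-box on the opposite strand at 84. PSAE2 has CACGTG at 63 and PSBT at 13. No motif of the 5 stood in the stretches printed for PSAE1 and PSAH1. CACGTG stood in 5 of the 26 stretches, against 6.49% of 27443 stretches of the same length before all annotated genes, and the other 2 with it were AT1G51400 and PSB28. GATAAG stood in 6 of 26 (PSAD1, PSAF, PSAH2, PSAK, PSB27-2 and AT1G51400), against 12.3% of all. CCAATC stood in 2 (PSB27-1 and PSB27-2), against 10.2%, and AAAAATCT in 2 (PSAN and PSAO), against 6.69%. AAAATATCT stood in none, against 2.36%. These counts depend on the start used. In the 250 bases before the deposited starts, which take in more of the transcribed part by the RefSeq annotation, CACGTG stood in 11 of 26, PSAE1 and PSAH1 among them, against 7.73% of 26692 genes, and GATAAG in 13 of 26, against 12.8%. CCAATC stood there in 2 (against 11.0%), AAAAATCT in 4 (against 6.58%) and AAAATATCT in none. A match to these letters is a description of the window only.

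Values are FPKM, fragments scaled to transcript length and library total, summed over the transcripts of a locus. Fold changes are on the log2(FPKM + 1) scale. A gene was called at an adjusted p under 0.05, from limma with Benjamini-Hochberg adjustment over the 18729 genes tested. The value of 1 fragment in each library implies between 6698000 and 15580000 fragments per library, so 1 FPKM in a transcript of 1 kb stood for 8.73 fragments in the median library. At that depth, counting error is small for the photosystem subunits, most of them above 100 FPKM in most libraries, and large for AT2G07688 and AT4G37230. Over all genes the median log2 fold change was 0.392 as deposited and 0.0406 after the libraries were rescaled by median of ratios, so each value below depends on the scaling. The size of the shift varied between genes. The median of the 27 tested genes moved from −1.35 to −1.77, and the low gene AT2G07688 from 0.489 to 0.380. As deposited, 23.2% of genes were lower and 64.5% higher at 35 DAS, and after rescaling 38.4% and 42.5%. Libraries of 1 group differed from each other, and these genes moved together between them, so counts of genes are not independent. At 35 DAS and ZT1, replicate 3 had the highest level of the 3 in 26 of 27 tested genes, with 3.93% of the library's FPKM in the 28 loci, while replicates 1 and 2 had 2.26% and 2.83%. At 35 DAS and ZT21, replicate 1 was the lowest of the 3 in 26 of 27.

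The 28 loci together took a smaller part of the RNA in older leaves at every time of day. They held 1.20% to 6.34% of the FPKM of a library at 35 DAS (median 2.84%, 18 libraries), against 3.46% to 10.4% at 21 DAS (median 6.18%). In the order ZT1, 5, 9, 13, 17 and 21, the mean share at 35 DAS was 3.01% ± 0.848, 6.06% ± 0.237, 3.49% ± 0.224, 2.75% ± 0.211, 1.66% ± 0.245 and 1.51% ± 0.325. At 21 DAS it was 7.03% ± 0.227, 10.3% ± 0.201, 9.40% ± 0.261, 5.06% ± 0.0117, 4.11% ± 0.614 and 5.12% ± 0.4995 at the same times (SD, n = 3 each). The share was highest at ZT5 at both ages, fell off sooner after ZT5 at 35 DAS, and was no higher at ZT21 than at ZT17 at that age. Without replicate 1, the lowest of its group, the mean at ZT21 and 35 DAS was 1.67%, level with ZT17.

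Averaged over the 6 times, 25 of the 27 tested genes were called lower at 35 DAS, where 23.2% of all genes were, and 2 were called higher, where 64.5% of all genes were. Their median log2 fold change was −1.35, against 0.392 over all genes. After rescaling it was −1.77 against 0.0406, with the same count of 25 lower. A fall of at least 2-fold was called in 19 genes, against 6.95% of all genes. In a whole leaf, fewer cells of a type and less RNA per cell cannot be told apart. The mesophyll markers RBCS1A, CA1 and RCA moved the same way, 3 of 3 called lower, with log2 fold changes of −2.11, −3.97 and −0.55. Their summed level was 3930 to 21400 FPKM at 35 DAS, against 19200 to 43800 FPKM at 21 DAS. The part of these cells in the result was not tested. Of the other markers, guard cell genes were lower in 3 of 3, phloem in 3 of 3, xylem in 2 of 2 tested and epidermis in 1 of 2 tested, while root had 0 of 2 lower and 1 higher. Log2 fold changes of those called lower ran from −0.11 (SUC2, phloem) to −2.84 (XCP2, xylem). The flower genes AP3 and PI summed to at most 1.52 FPKM at 35 DAS and 0.184 FPKM at 21 DAS and were not tested.

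**Figure D1:**
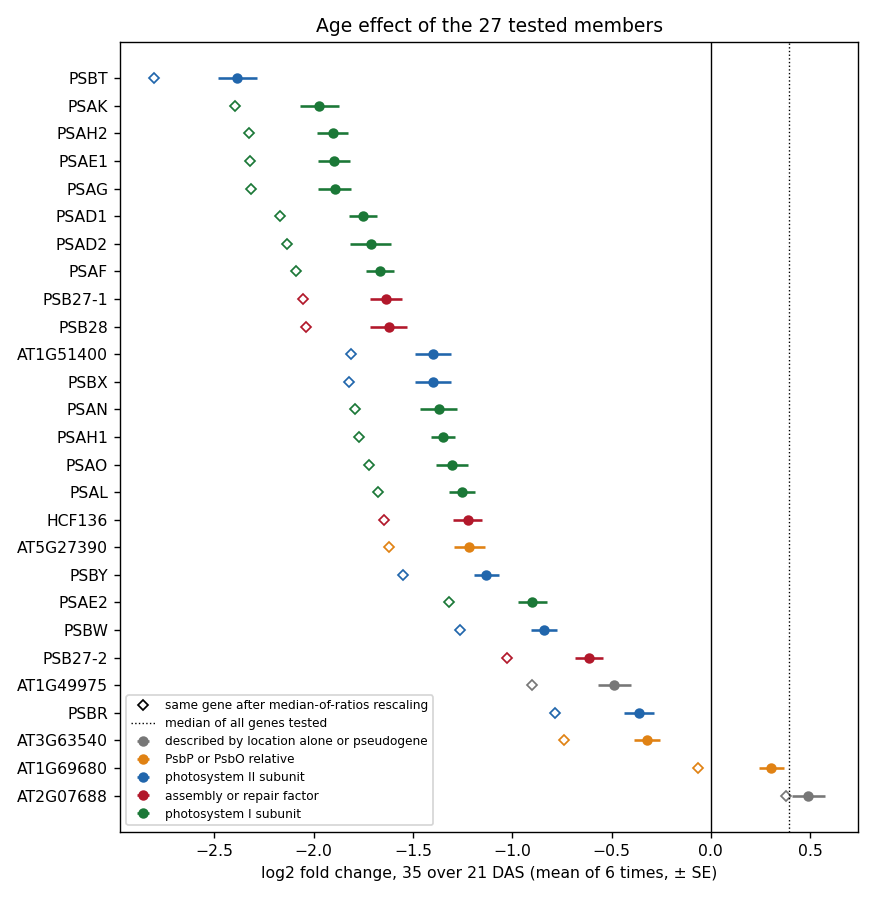
Log2 fold change of each tested gene, 35 over 21 DAS, averaged over 6 times (x axis; filled circles with SE from limma), one gene per row and coloured by role. Open diamonds give the same gene after median-of-ratios rescaling and the dotted line the median of all genes tested; 25 of 27 genes lie left of 0 and are called, and AT1G69680 lies right of 0 as deposited and left of it after rescaling.

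All 12 photosystem I subunits were called lower at 35 DAS, with log2 fold changes from −1.97 to −0.90 and a median of −1.69 (−2.11 after rescaling). PSAK (AT1G30380, chr1:10722197-10723247, plus strand) had the lowest of them. Its lowest, median and highest values were 175, 703 and 1946 FPKM at 35 DAS, against 1084, 2334 and 3644 FPKM at 21 DAS. The ranges of the 18 libraries overlap, and the daily peak at 35 DAS lies above the daily trough at 21 DAS, but at each of the 6 times all 3 libraries of 35 DAS lay below all 3 of 21 DAS. The log2 fold change was −1.97 ± 0.10 (SE, adjusted p = 9.53e-17), which leaves 25.5% of the level at 21 DAS. PSAG (AT1G55670, chr1:20802670-20803449, minus strand), which like PsaK sits at the antenna side, ran at 408, 1454 and 4204 FPKM (lowest, median and highest of 35 DAS), against 2475, 4484 and 7999 FPKM at 21 DAS, a log2 fold change of −1.90 ± 0.08.

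On the ferredoxin side, PSAD1 (AT4G02770, chr4:1229111-1229945, minus strand) ran from 167 to 2679.7 FPKM at 35 DAS (median 1196), against 1338 to 5939.8 FPKM at 21 DAS (median 2600.2), a log2 fold change of −1.75 ± 0.07 (adjusted p = 1.71e-18). PSAD2 (AT1G03130, chr1:753307-754198, minus strand) changed by −1.71 ± 0.10, PSAE1 (AT4G28750, chr4:14202758-14203961, minus strand) by −1.90 ± 0.08 and PSAE2 (AT2G20260, chr2:8736734-8737767, plus strand) by −0.90 ± 0.07. PSAE2 thus had the smallest fall of the 12, and the region of its locus overlaps AT2G20270, whose reads may be counted with it. On the lumenal side, PSAF (AT1G31330, chr1:11214824-11216037, minus strand), the plastocyanin docking subunit, had 573, 1591 and 4774 FPKM as lowest, median and highest value at 35 DAS, against 1765, 4489.9 and 10620.0 FPKM at 21 DAS. Its log2 fold change was −1.67 ± 0.07, and that of PSAN, its lumenal neighbour (AT5G64040, chr5:25628588-25629615, minus strand), was −1.37 ± 0.09. In the state transition face, PSAH2 (AT1G52230, chr1:19454836-19455668, plus strand) changed by −1.91 ± 0.08, PSAH1 (AT3G16140, chr3:5468509-5469481, minus strand) by −1.35 ± 0.06, PSAL (AT4G12800, chr4:7521322-7522670, plus strand) by −1.25 ± 0.06 and PSAO (AT1G08380, chr1:2640813-2641828, minus strand) by −1.30 ± 0.08. PSAO, PSAL and PSAF were the most abundant of these transcripts at 35 DAS, at 2290.2 ± 1929.6, 2129.8 ± 1354 and 1869 ± 1313 FPKM (SD over 18 libraries, most of it the time of day).

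The 6 small subunits of photosystem II were all called lower as well, but over a wider span, from −2.38 to −0.36 with a median of −1.26. PSBT (AT3G21055, chr3:7376635-7377186, minus strand), a small nuclear-encoded lumenal protein, fell the most of all 27 genes. It ran at 266, 628 and 1777 FPKM (lowest, median and highest of 35 DAS), against 2035, 3338 and 4667 FPKM at 21 DAS. Every library of 35 DAS lay below every library of 21 DAS, whatever the time of day. Its log2 fold change was −2.38 ± 0.10 (SE, adjusted p = 1.58e-18), or 19.2% of the level at 21 DAS. PSBX (AT2G06520, chr2:2587729-2588358, minus strand) also had no overlap between ages over all 18 libraries a side, at 560.0, 1619.5 and 3439 FPKM, against 3491, 4341 and 5722 FPKM at 21 DAS, and changed by −1.40 ± 0.09. Such a complete separation was found in 4 of the 27 genes (PSBT, PSBX, HCF136 and AT5G27390), against 3.75% of all genes.

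PSBR (AT1G79040, chr1:29736016-29737009, plus strand), which helps to bind the oxygen-evolving proteins, was the other extreme. It was the most abundant transcript of all 28 loci at both ages, with 2989.5, 5982 and 10188 FPKM as lowest, median and highest value at 35 DAS, against 5376, 7449 and 9652 FPKM at 21 DAS. The log2 fold change was −0.36 ± 0.07 (adjusted p = 6.54e-05). At ZT5 it had 8565, 9612 and 10188 FPKM at 35 DAS, against 9493, 9599 and 9652 FPKM at 21 DAS, and the ranges overlap. Called falls were seen at ZT9, ZT17 and ZT21. The locus overlaps AT1G79050, so reads of both may be counted here. Between these, AT1G51400 (chr1:19052023-19052582, minus strand), described as a small photosystem II protein and overlapping 2 other loci (AT1G51390 and AT1G51402), changed by −1.40 ± 0.09, PSBY (AT1G67740, chr1:25394068-25395154, minus strand) by −1.13 ± 0.06 and PSBW (AT2G30570, chr2:13019028-13020194, minus strand), which stabilises the complex with its antenna, by −0.84 ± 0.06.

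The 4 assembly and repair factors, which are not part of the finished complex, were called lower too. HCF136 (AT5G23120, chr5:7778121-7780628, plus strand), needed for the first steps of photosystem II assembly, had 106, 149.9 and 227 FPKM as lowest, median and highest value at 35 DAS, against 297, 353 and 457 FPKM at 21 DAS, with no overlap. Its log2 fold change was −1.23 ± 0.07 (adjusted p = 3.61e-15). PSB28 (AT4G28660, chr4:14149880-14151104, plus strand), whose cyanobacterial relative binds assembly intermediates, changed by −1.62 ± 0.09. PSB27-1 (AT1G03600, chr1:898876-899655, plus strand), described as a repair protein, had 97.9, 186 and 381 FPKM at 35 DAS, against 367, 634 and 820.1 FPKM at 21 DAS, a log2 fold change of −1.64 ± 0.08. PSB27-2 (AT1G05385, chr1:1582671-1583718, minus strand), which acts in maturation of the D1 precursor, had 24.7, 29.6 and 44.6 FPKM at 35 DAS, against 38.5, 47.6 and 72.8 FPKM at 21 DAS, a log2 fold change of −0.61 ± 0.07. The difference between these 2 genes was not tested.

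The relatives of PsbP had no common course. AT5G27390 (chr5:9674391-9676189, minus strand) had 9.32, 16.9 and 24.4 FPKM as lowest, median and highest value at 35 DAS, against 32.0, 39.3 and 56.2 FPKM at 21 DAS, with no overlap and a log2 fold change of −1.22 ± 0.08. AT3G63540 (chr3:23459182-23459804, minus strand) changed by −0.32 ± 0.07, called over the day and, at single times, at ZT17 and ZT21 alone. AT1G69680 (chr1:26204805-26206928, plus strand) was called higher at 35 DAS as deposited, with 5.20, 8.50 and 12.4 FPKM, against 4.61, 6.43 and 9.43 FPKM at 21 DAS, but its log2 fold change of 0.30 ± 0.06 (adjusted p = 8.77e-05) is near the median of all genes and became −0.07 (adjusted p = 0.344) after rescaling. AT1G49975 (chr1:18504802-18505597, plus strand), described by its place in photosystem I and a domain of subunit N, had 27.2, 40.5 and 68.5 FPKM at 35 DAS, against 31.4, 64.3 and 93.6 FPKM at 21 DAS. Its log2 fold change was −0.49 ± 0.08. The second gene called higher was the pseudogene AT2G07688 (chr2:3331570-3332664, minus strand), similar to the plastid gene for the D1 protein. It had 0.129, 0.757 and 1.85 FPKM at 35 DAS, against 0, 0.224 and 0.792 FPKM at 21 DAS, where 6 of 18 libraries were at 0. The log2 fold change was 0.49 ± 0.08, at levels of few fragments, and the gene passed the filter on low values through the libraries in which it was high.

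The age effect depended on the time of day. In the order ZT1, 5, 9, 13, 17 and 21, the genes called lower were 23, 21, 24, 21, 24 and 25 of 27, against 17.3%, 15.2%, 17.7%, 18.0%, 18.5% and 18.4% of all genes. In the same order, the median log2 fold change of the 27 genes was −1.18, −0.894, −1.50, −0.870, −1.45 and −1.86. The effect was thus smallest around ZT5 and ZT13 and largest at the end of the night. Single genes followed the median: 16 of 27 had their lowest effect at ZT21 and 7 at ZT9. In 21 genes all 3 libraries of 35 DAS lay below all 3 of 21 DAS at all 6 times, against 8.94% of all genes. A call of lower was made at all 6 times in 20 genes. The share of all genes with that is not given here, but it can be at most the 15.2% called at ZT5. Among the 20 were 11 of the 12 photosystem I subunits, the exception being PSAD2, whose difference at ZT13 was −0.46 (adjusted p = 0.108).

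**Figure D2:**
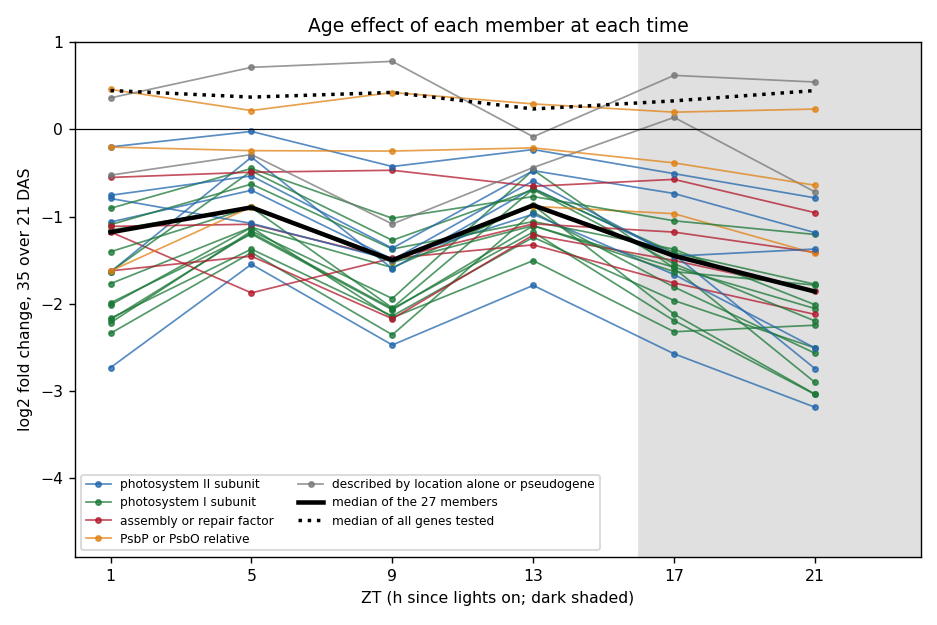
Log2 fold change of each of the 27 tested genes, 35 over 21 DAS (y axis), at each time of day (x axis, hours since lights on, dark shaded), coloured by role. The black line, the median of the 27 genes, is at −0.894 at ZT5 and −1.86 at ZT21, while the dotted median of all genes stays between 0.235 and 0.447; AT1G69680 and AT2G07688 lie above 0 at most times as deposited, AT1G69680 near the dotted line.

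Per library, PSBT showed the width of this change. At ZT21 it had 266, 315 and 478 FPKM at 35 DAS, against 2698, 3329 and 3406 FPKM at 21 DAS, a log2 fold change of −3.19 (SE 0.24). At ZT5 it had 1272, 1404 and 1777 FPKM at 35 DAS, against 4109, 4351 and 4439 FPKM at 21 DAS, a log2 fold change of −1.55. The ages do not overlap at either time, and the gap on the log2 scale was wider before dawn than in the morning.

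The direct test of this, the age effect in the dark (ZT17 and ZT21) minus that in the light (ZT1, 5, 9 and 13), called 12 genes, all toward a larger fall in the dark, where 9.30% of all genes were called in that direction. In the other direction 0 of 27 genes were called at an adjusted p under 0.05 by limma, where 6.46% of all genes were, and 0 at an unadjusted p under 0.05. The median difference over the 27 genes was −0.42, and 24 of 27 lay below 0. Of the 12 called genes 8 were photosystem I subunits (PSAD1, PSAK, PSAO, PSAD2, PSAL, PSAG, PSAH1 and PSAE1) and 4 were photosystem II subunits (AT1G51400, PSBX, PSBT and PSBY). The difference rests mostly on ZT21. With ZT21 as the one dark time 11 genes were called lower (4.15% of all genes), and with ZT17 as the one dark time 1, PSAD1 (10.3% of all genes), with 6 at an unadjusted p under 0.05. Of the 12 genes, 11 had an age effect at ZT21 below that at every light time, and 6 had one at ZT17. For PSAD2 the age effect was −1.59 at ZT17 and −2.22 at ZT1, and for AT1G51400 −1.44 at ZT17 and −1.63 at ZT1, with the lower value at ZT1 in both. None of the 4 assembly and repair factors was called in the test of both dark times, with differences from −0.48 (PSB28, adjusted p = 0.101) to −0.06 (PSB27-1).

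PSAD1 had the lowest difference. Its age effect was −2.58 in the dark and −1.34 in the light, a difference of −1.24 ± 0.15 (SE, adjusted p = 7.28e-06). In the libraries, ZT21 gave 167, 233 and 253 FPKM at 35 DAS, against 1569.8, 1874 and 1877 FPKM at 21 DAS, and ZT5 gave 2626, 2630.1 and 2679.7 FPKM at 35 DAS, against 5652, 5698 and 5939.8 FPKM at 21 DAS. The ages do not overlap at either time, and the ratio between them is wider at ZT21. For AT1G51400 the age effect was −2.09 in the dark and −1.06 in the light, a difference of −1.03 ± 0.19 (adjusted p = 6.47e-04). It had 16.8, 20.5 and 25.2 FPKM at ZT21 at 35 DAS, against 115, 156 and 164 FPKM at 21 DAS, and 157, 190.2 and 196 FPKM at ZT5 at 35 DAS, against 219.9, 220.3 and 235 FPKM at 21 DAS. At ZT5 the effect of −0.32 missed the threshold (adjusted p = 0.218). PSBX had an age effect of −2.09 in the dark and −1.05 in the light, a difference of −1.03 ± 0.20 (adjusted p = 7.04e-04), with 560.0, 778 and 1225 FPKM at ZT21 at 35 DAS, against 4088, 4813 and 4992 FPKM at 21 DAS.

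The 3 highest differences were those of AT1G49975 (0.29 ± 0.17), AT2G07688 (0.14 ± 0.18) and AT5G27390 (0.03 ± 0.16), and none was called. AT1G49975 had 36.6, 38.5 and 45.5 FPKM at ZT17 at 35 DAS, against 31.4, 38.1 and 39.9 FPKM at 21 DAS, and was the one gene beside AT1G69680 and AT2G07688 that was not below 0 at every time. The count of 12 rests on all 3 libraries of each group: it was 9 without the libraries numbered 1, 4 without those numbered 2 and 4 without those numbered 3. Over all genes the share called in that direction fell in the same fits, to 4.14%, 4.40% and 3.88%. Without the one library of 35 DAS at ZT21 that was lowest in most genes, replicate 1, it was 9 (7.40% of all genes), without PSAE1, PSAG and PSBY. After rescaling it was 10, against 9.24% of all genes, without PSAE1 and PSBY. The genes called in the full set and in each of these 3 smaller sets were 4: PSAD1, AT1G51400, PSBX and PSAO.

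Daily rhythms of the photosystem subunit genes were kept at 35 DAS, and the fitted swing was wider in most, though by little in some. With a 24-h curve of amplitude 0.5 log2 units or more (peak to trough at least 1 log2 unit), 18 of 27 genes were rhythmic at 35 DAS (17.3% of all genes) and 14 at 21 DAS (26.8% of all genes). All 14 were among the 18, and the 4 others were PSBT, PSBX, PSAH1 and PSBR, whose amplitudes at 21 DAS lay under the minimum at 0.17 to 0.46. With the minimum at 0.25 the counts were 20 at 35 DAS and 23 at 21 DAS, so the order of the 2 counts turns with that choice. The share of all genes at that minimum is not given here, so these 2 counts cannot be set against it. After rescaling there were 19 at 35 DAS (15.3% of all genes) and 19 at 21 DAS (23.4%). Rhythmic were all 12 photosystem I subunits at 35 DAS and 11 at 21 DAS, and all 6 photosystem II subunits at 35 DAS and 3 at 21 DAS (AT1G51400, PSBY and PSBW). None of the assembly factors or PsbP relatives was rhythmic at either age by this rule. PSB27-1 missed it at 21 DAS by the amplitude minimum alone. Its amplitude there was 0.494 (limma, adjusted p = 2.81e-05), with a fitted peak at ZT5.24.

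Fitted peaks lay in the morning to midday, at ZT4.91 to ZT8.71 at 35 DAS and ZT4.32 to ZT9.43 at 21 DAS. A peak between ZT4 and ZT8 was found in 17 genes at 35 DAS, against 2.23% of all genes tested, and in 13 at 21 DAS, against 2.29%. The latest of them at both ages was PSAE2, at ZT8.71 ± 0.627 h at 35 DAS and ZT9.43 ± 0.45 h at 21 DAS (SD over 3 replicate numbers). Of the 14 genes rhythmic at both ages, 13 had a larger amplitude at 35 DAS, with a median of 1.13 at 35 DAS, against 0.835 at 21 DAS. The gain was near 0 in PSBW (0.001) and PSAH2 (0.005) and small in PSAF (0.071) and PSBY (0.072). No rhythm difference was called in PSBW, PSAF or PSBY. The count of larger amplitudes after rescaling is not given here. Over the 2398 genes of the whole table rhythmic at both ages the medians were 0.771 at 35 DAS and 0.900 at 21 DAS, and 30.8% had the larger amplitude at 35 DAS. The fitted peak was later at 35 DAS in 13 of the 14, by a median of 0.842 h, with single shifts from −0.725 h (PSAE2) to 2.44 h (AT1G51400). The shifts of PSBY (0.08 h), PSAG (0.10 h), PSAL (0.12 h) and PSBW (0.17 h) were under the SD of their peak times at 35 DAS (0.46 to 0.80 h). The share of all genes with a later fitted peak is not given here. A later fitted peak is a shift of the fitted curve and not of the highest mean. That mean was at ZT5 in 18 of 18 rhythmic genes at 35 DAS and 12 of 14 at 21 DAS.

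**Figure D3:**
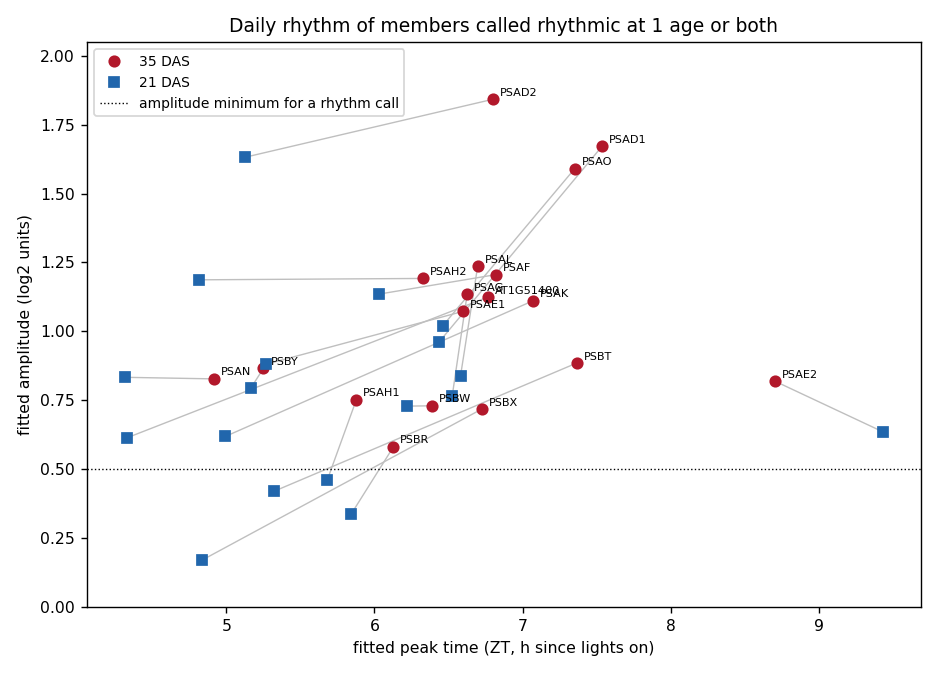
Fitted amplitude (y axis, log2 units) and fitted peak time (x axis, hours since lights on) of the 18 genes rhythmic at 35 DAS (red circles), joined by grey lines to the same genes at 21 DAS (blue squares). The dotted line is the amplitude minimum of 0.5; PSAD2, PSAD1 and PSAO stand highest at 35 DAS, and PSAE2 is the latest at both ages.

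The largest amplitudes at 35 DAS were those of PSAD2 at 1.84 ± 0.13, PSAD1 at 1.67 ± 0.09 and PSAO at 1.59 ± 0.08 log2 units (SD over 3 replicate numbers). At 21 DAS the largest were PSAD2 at 1.63 ± 0.16, PSAH2 at 1.19 ± 0.11 and PSAF at 1.14 ± 0.12. PSAD2 therefore had the widest swing at both ages. Its mean levels at 35 DAS were 259 ± 110.2, 1327 ± 33.8, 558 ± 79.9, 271 ± 111, 114 ± 23.3 and 78.6 ± 17.8 FPKM at ZT1, 5, 9, 13, 17 and 21, against 1143 ± 92.4, 2975 ± 34.1, 2133 ± 123, 358 ± 55.9, 353 ± 111 and 588 ± 70.3 FPKM at 21 DAS (SD, n = 3 each). The highest mean was 16.9 times the lowest at 35 DAS and 8.44 times at 21 DAS. PSAO averaged 1236 ± 451, 5902 ± 525, 3349 ± 209, 1909 ± 321, 752 ± 111 and 594 ± 118 FPKM over the same times at 35 DAS, against 3685 ± 318, 8193 ± 44.7, 8084 ± 351, 3056 ± 152, 2222 ± 544 and 2710.1 ± 381 FPKM at 21 DAS, or 9.94 times between highest and lowest at 35 DAS and 3.69 times at 21 DAS.

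The shape of the day changed at 2 points. After ZT5 the level dropped sooner in older leaves: among the 14 genes rhythmic at both ages, the mean at ZT9 was 49.8% of that at ZT5 at 35 DAS (median, range 30.0% to 86.6%), against 89.6% at 21 DAS (range 68.0% to 130.0%), and it was the smaller share at 35 DAS in 14 of 14. In the dark, the mean at ZT21 was 84.1% of that at ZT17 at 35 DAS (range 56.5% to 119.0%), against 122.0% at 21 DAS (range 89.1% to 172.0%), and smaller at 35 DAS in 12 of 14. The level at ZT21 was above that at ZT17 in 13 of the 14 genes at 21 DAS (not in PSAE2), and below it in 11 of 14 at 35 DAS (not in PSAG, PSAN and PSBY). Without replicate 1 of ZT21 at 35 DAS the median there was 93.5%, with 8 of 14 below ZT17 and 12 of 14 still the smaller share at 35 DAS, so a fall from ZT17 to ZT21 in older leaves rests in part on 1 library. The highest mean was at ZT5 in 18 of 18 rhythmic genes at 35 DAS and 12 of 14 at 21 DAS. The lowest was at ZT21 in 14 of 18 at 35 DAS and at ZT17 in 12 of 14 at 21 DAS; without that library it was at ZT21 in 10 of 18 at 35 DAS. AT1G51400 shows both points, with 29.5 ± 14.4, 181 ± 21.2, 54.3 ± 11.2, 36.7 ± 3.57, 30.5 ± 7.17 and 20.8 ± 4.24 FPKM at ZT1, 5, 9, 13, 17 and 21 at 35 DAS, against 87.8 ± 7.26, 225 ± 8.70, 165 ± 19.7, 59.2 ± 5.67, 84.5 ± 20.6 and 145 ± 26.5 FPKM at 21 DAS. These shares are descriptions, with no test of their own. The same counts over all rhythmic genes are not given here, so the 2 changes cannot be called particular to these genes. The genes also moved together between libraries, so the counts are not independent.

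**Figure D4:**
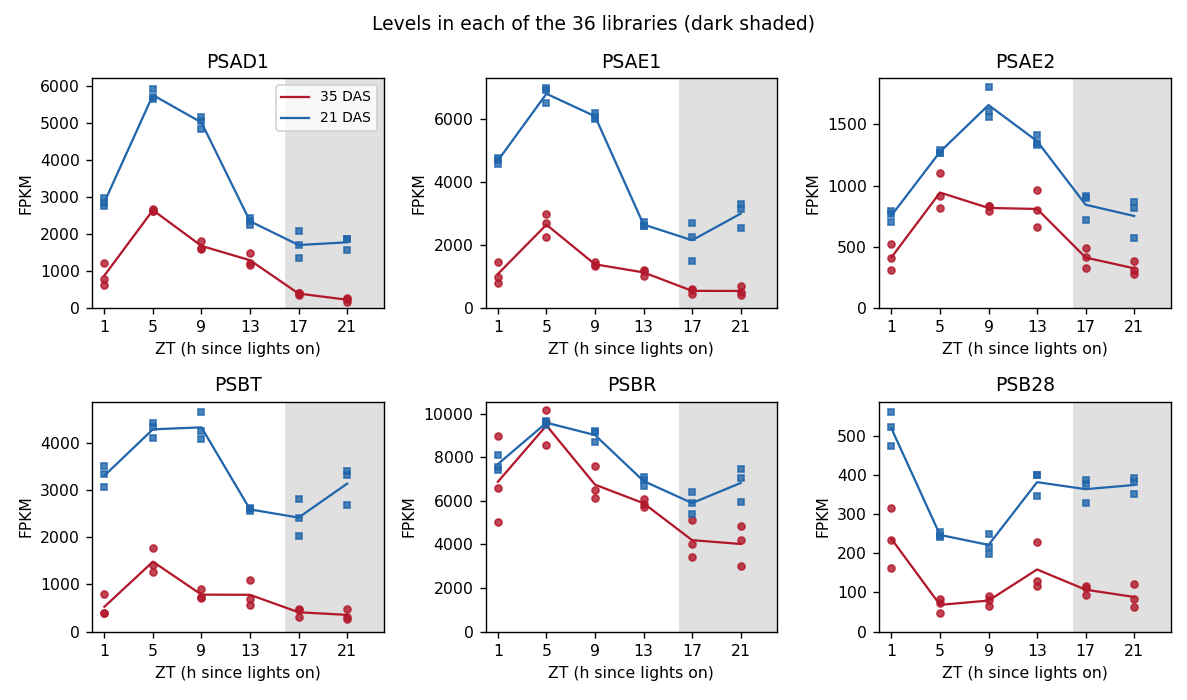
FPKM of 6 genes in each of the 36 libraries (points) and the mean of each group (lines) against time of day (x axis, hours since lights on, dark shaded), at 35 DAS (red) and 21 DAS (blue). PSAD1, PSAE1 and PSBT lie lower at 35 DAS at all times, PSAE2 less so, PSBR overlaps around ZT5, and PSB28 is high at ZT1 and low at ZT5 and ZT9 at both ages.

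The test of the rhythm difference itself called 12 of 27 genes, against 27.1% of all genes, and in all 12 the fitted amplitude was larger at 35 DAS, a combination that 5.20% of all genes had. By p they were led by PSAD1 (adjusted p = 1.07e-05), PSAO (5.44e-04) and AT1G51400 (6.10e-04). PSAD1 had an amplitude of 1.67 ± 0.09 with a peak at ZT7.54 ± 0.332 h at 35 DAS, against 0.96 ± 0.15 and ZT6.43 ± 0.144 h at 21 DAS. The other called genes were PSAD2, PSAK, PSBX, PSAL, PSAH2, PSBT, PSAH1, PSAE1 and PSAG. For PSAH2 the amplitudes were alike, 1.19 ± 0.11 at 35 DAS and 1.19 ± 0.11 at 21 DAS. Its fitted peak was later, ZT6.33 ± 0.782 h at 35 DAS and ZT4.82 ± 0.425 h at 21 DAS. The highest mean of PSAH2 was at ZT5 at both ages. Of the 12 genes, 11 were also called for the dark minus light difference, which uses the same libraries. The count was 10 after rescaling (25.1% of all genes), 9 of them with the larger amplitude at 35 DAS (4.81%). It fell to 7 without the libraries numbered 1, 2 without those numbered 2 and 7 without those numbered 3 (10.3%, 13.0% and 14.3% of all genes), and PSAD1 and PSAO were the 2 genes called in all 3 smaller sets.

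PSB28 and HCF136, which were not called, did not follow the daily course of the photosystem I genes. PSB28 was highest at ZT1 and low at ZT5 and ZT9 at both ages, with 237 ± 75.7, 68.1 ± 17.8, 79.1 ± 12.7, 158 ± 60.9, 107 ± 13.2 and 88.2 ± 29.3 FPKM at ZT1, 5, 9, 13, 17 and 21 at 35 DAS, against 519 ± 44.2, 247 ± 6.37, 221 ± 26.9, 381 ± 30.1, 364 ± 31.4 and 374 ± 20.9 FPKM at 21 DAS. PSB28 thus ran low at ZT5, when the photosystem I genes ran high. At 35 DAS it was also low at ZT21, when most of those genes were low too. The fitted 24-h curves had amplitudes of 0.25 at 35 DAS and 0.42 at 21 DAS. HCF136 was near level over the day, between 118 and 179 FPKM in the group means of 35 DAS, against 321 to 418 FPKM at 21 DAS.

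The paired genes of photosystem I did not all change in step. For PsaE, PSAE1 made up 64.3% ± 7.21 of the summed FPKM of PSAE1 and PSAE2 at 35 DAS, against 77.7% ± 7.41 at 21 DAS (SD, 18 libraries each), and the mean ratio was lower at 35 DAS at 6 of 6 times. The log2 ratio of PSAE1 to PSAE2 differed by −0.999 between the ages (two-sided permutation test moving ages within each time, p = 1e-05, adjusted over the 3 pairs 1.5e-05; 1e-05 is the smallest p that 100000 permutations can give). At ZT1 the share of PSAE1 was 72.1% ± 1.46 at 35 DAS, against 86.1% ± 0.9 at 21 DAS, and at ZT13 58.3% ± 6.75 at 35 DAS against 65.9% ± 0.0577 at 21 DAS (SD, n = 3 each). The libraries of the 2 ages did not overlap at any of the 6 times, and the gap was narrowest at ZT13, where the highest share at 35 DAS was 64.5% and the lowest at 21 DAS 65.9%. PSAE1 itself averaged 1074 ± 338, 2638 ± 365, 1379 ± 57.6, 1123 ± 98.2, 538 ± 78.9 and 534 ± 141 FPKM at ZT1, 5, 9, 13, 17 and 21 at 35 DAS, against 4673 ± 105, 6793 ± 245, 6078 ± 92.3, 2642 ± 84.0, 2144 ± 604 and 2987 ± 410.3 FPKM at 21 DAS. PSAE2 averaged 412 ± 109, 943 ± 146, 817 ± 23.3, 809 ± 154, 411 ± 84.3 and 323 ± 54.5 FPKM at 35 DAS, against 755 ± 49.2, 1276 ± 15.5, 1659 ± 128, 1364 ± 45.4, 843 ± 108 and 751 ± 160.2 FPKM at 21 DAS. The fall of PsaE transcripts was thus mostly that of PSAE1, the more abundant copy.

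For PsaH it was PSAH2 that fell more. PSAH1 made up 60.6% ± 6.71 of the pair at 35 DAS, against 51.2% ± 9.53 at 21 DAS, and the log2 ratio of PSAH1 to PSAH2 differed by 0.556 (permutation p = 1e-05, adjusted 1.5e-05). The PSAH ratio was higher at 35 DAS at 5 of 6 times. The shares of all 3 libraries of 35 DAS lay above those of 21 DAS at ZT1, ZT5, ZT9 and ZT21. At ZT17 they overlapped (62.8% to 66.5% at 35 DAS, against 61.5% to 63.5% at 21 DAS). At ZT13 all 3 lay below, at 59.1% ± 0.702 at 35 DAS and 61.7% ± 1.57 at 21 DAS. No single time was tested. The difference was widest at ZT1, 62.8% ± 3.98 at 35 DAS against 42.7% ± 3.06 at 21 DAS. PSAH1 averaged 1172 ± 272, 1731 ± 107, 1106 ± 70.2, 949 ± 100.2, 567 ± 65.8 and 607 ± 107 FPKM at ZT1, 5, 9, 13, 17 and 21 at 35 DAS, against 2568 ± 135, 3214 ± 88.9, 3184 ± 136, 2033 ± 43.7, 1762 ± 268 and 2085 ± 257 FPKM at 21 DAS. PSAH2 averaged 719 ± 296, 1829 ± 161, 766 ± 53.7, 656 ± 76.6, 304 ± 55.8 and 279 ± 51.9 FPKM at 35 DAS, against 3474 ± 439.6, 4862 ± 292, 3929 ± 338, 1261 ± 57.2, 1069 ± 207 and 1646 ± 165 FPKM at 21 DAS. The fitted amplitude was larger in PSAH2 at both ages, 1.19 ± 0.11 against 0.75 ± 0.04 for PSAH1 at 35 DAS, and 1.19 ± 0.11 against 0.46 ± 0.13 at 21 DAS.

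For PsaD, PSAD1 made up 75.4% ± 5.81 of the pair at 35 DAS, against 75.4% ± 7.56 at 21 DAS, and the log2 ratio differed by −0.0371 (permutation p = 0.692, adjusted 0.692). The share nevertheless varied over the day at both ages, 66.6% ± 0.625 at ZT5 and 83.0% ± 3.88 at ZT13 at 35 DAS, against 66.0% ± 0.473 and 86.8% ± 1.46 at 21 DAS. The equal mean hides differences of opposite direction at single times. The libraries of 35 DAS all lay above those of 21 DAS at ZT1 (76.2% to 78.5% at 35 DAS, against 70.7% to 72.5% at 21 DAS) and at ZT9 (73.6% to 77.4% at 35 DAS, against 69.9% to 70.8% at 21 DAS). They all lay below at ZT17 (74.0% to 81.1% at 35 DAS, against 81.7% to 84.6% at 21 DAS) and overlapped at ZT5, ZT13 and ZT21, and no single time was tested. The coding sequences of a pair were 86.3% identical for PSAD, 77.3% for PSAE and 87.0% for PSAH, with a longest identical run of 35, 22 and 30 bases. Reads within such runs could be counted for either copy. PSAH1 and PSAE2 also overlap a neighbouring locus each (AT3G16130 and AT2G20270), and the use of strand in counting is not given in the sources used here.

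**Figure D5:**
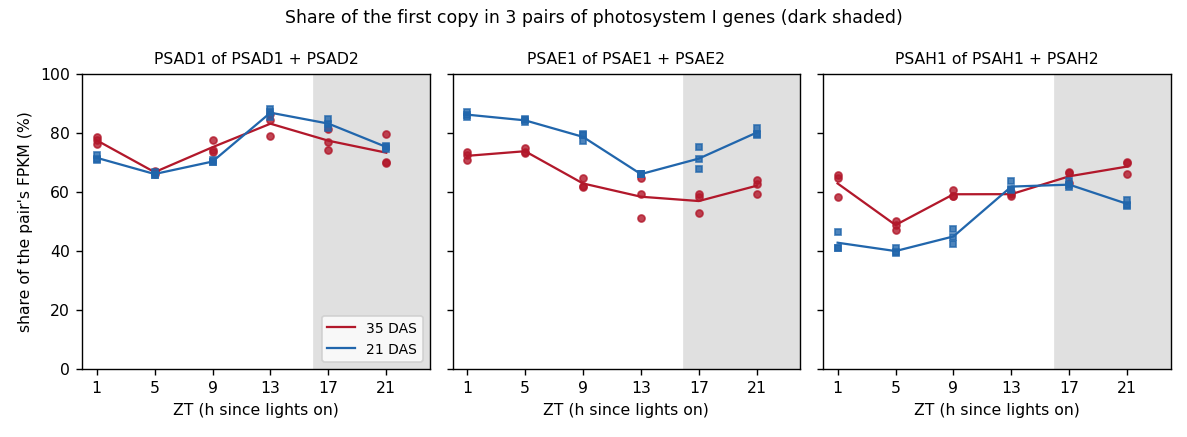
Share of the named copy in the summed FPKM of its pair (y axis, percent) in each library (points) and the mean of each group (lines) against time of day (x axis, hours since lights on, dark shaded), at 35 DAS (red) and 21 DAS (blue). PSAE1 takes a smaller share at 35 DAS at all 6 times, PSAH1 a larger one at 5 of 6, and PSAD1 averages 75.4% at both ages.

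A list of 24 genes outside the set of photosystem loci, called electron transport genes here, also fell in most of its members. Beside genes of electron transport it holds ATP synthase genes (ATPC1, ATPD and ATPG) and PSBO1 of photosystem II. It also holds kinases, a phosphatase and proteases (STN7, STN8, TAP38, FTSH1, FTSH2, FTSH5, FTSH8 and DEG1). Of the 24 genes, 17 were called lower and 4 higher at 35 DAS (23.2% and 64.5% of all genes), with a median log2 fold change of −0.907. After rescaling 20 were called lower and 2 higher (38.4% and 42.5% of all genes). PSBO1, the main protein that stabilises the manganese cluster of photosystem II, changed by −1.21 ± 0.06, and the plastocyanin gene PETE2 by −1.65 ± 0.09. The ferredoxin genes FD1 and FD2, whose proteins dock to PsaD and PsaE, changed by −1.97 ± 0.08 and −1.73 ± 0.07. The 4 called higher as deposited were PTOX, the plastid terminal oxidase (0.75 ± 0.04), PGRL1B (0.56 ± 0.04) and PGR5 (0.41 ± 0.06) of cyclic electron flow, and the phosphatase TAP38 (0.35 ± 0.04); after rescaling PTOX and PGRL1B alone were. The kinase STN7, the protease gene DEG1 and the D1 protease subunit FTSH8 were not called as deposited, at 0.07 ± 0.04, 0.02 ± 0.03 and 0.03 ± 0.04, and were called lower after rescaling. In the dark minus light test 5 of the 24 were called lower (9.30% of all genes) and 0 higher by limma (6.46% of all genes; 0 of the 24 higher at an unadjusted p under 0.05). A rhythm difference was called in 6 of the 24, a share near the 27.1% of all genes.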

How the data were processed

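Polyadenylated RNA of 36 leaf libraries was sequenced (TruSeq kit, NovaSeq, per the labels' protocols). The deposited table holds FPKM per transcript and library for 41342 transcripts of 33279 loci on chromosomes 1 to 5. Per the submitters' processing notes, TAIR10, STAR 2.3.0e, HTSeq and edgeR 3.12.1 were used, with no role or order given, and the step to FPKM is not given in the sources used here. Column names mark age by the letters Y and O, read as the younger and older leaves. One column counts samples up to 72, so the table may come from a larger one. Plastid-encoded genes are not analysed here.

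FPKM were summed per locus. Loci with at least 1 FPKM in at least 3 libraries were kept (18729) and analysed as log2(FPKM + 1), which understates changes of low genes. limma 3.58.1 in R 4.3.3 fitted 12 group means (eBayes with trend), adjusted by Benjamini-Hochberg over all genes kept. Contrasts were age over the day and at each time, age in the dark minus age in the light, a 24-h cosine and sine at each age, and their difference between ages. SEs are limma's. The paralog test permuted ages within times. The limma and permutation steps were tested on simulated data. Total fragments were implied from the value of 1 fragment in low genes, and no counts were recovered. No 2 libraries held identical values.

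The titles do not say that a batch number is shared across groups. Deviations from group means correlated at a mean of 0.00856 within a number (pairs from −0.473 to 0.582) and −0.00445 between numbers, so the numbers were not taken as pairs in the tests. The SDs of fitted amplitudes and peak times still join libraries by number. The loci, gene lists and tests were chosen with earlier results of these data known. Values by library are given for the lowest and highest fold change of each role, the 3 extremes of dark minus light at each end, the 3 largest amplitudes at each age, the 3 smallest p of the rhythm difference, the gene pairs and genes not called lower, and for others chosen after their values were seen. Alternatives were a pseudocount of 0.1, no filter, median-of-ratios rescaling, a replicate block, each replicate number left out, library weights and an amplitude minimum of 0.25. ZT17 or ZT21 as the one dark time, and leaving out replicate 1 of ZT21 at 35 DAS, were chosen after seeing the data. Overlapping loci cannot be separated without strand.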

Additional observations from a re-analysis of the deposited data

Results flagged for a closer look

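These are the genes in which the age effect differed between dark and light, or the daily rhythm between ages, by a test of the difference itself (limma, adjusted p under 0.05). The age effect in the dark minus that in the light was −1.24 log2 units for PSAD1, −1.03 for AT1G51400 and −1.03 for PSBX. It was −0.97 for PSAK, −0.85 for PSAO, −0.80 for PSAD2 and −0.75 for PSBT. Smaller differences were called in PSAL (−0.66), PSAG (−0.58), PSAH1 (−0.54), PSAE1 (−0.51) and PSBY (−0.42).

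For the rhythm difference, the fitted amplitude at 35 DAS minus that at 21 DAS was 0.71 log2 units for PSAD1, 0.57 for PSAO, 0.55 for PSBX and 0.51 for AT1G51400. It was 0.49 for PSAK, 0.47 for PSBT, 0.40 for PSAL and 0.37 for PSAG. It was 0.29 for PSAH1, 0.21 for PSAD2, 0.19 for PSAE1 and 0.00506 for PSAH2, where the fitted peak was 1.51 h later at 35 DAS. Because 12 genes were called in each test from the same libraries, and 11 were in both, the calls are not independent of each other.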

How the results depend on the processing

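The 25 genes called lower over the day were called lower under every alternative run. After rescaling, members called higher were 1 in place of 2, as AT1G69680 turned to −0.066, and electron transport genes called higher were 2 in place of 4. With an amplitude minimum of 0.25, 23 genes were rhythmic at 21 DAS, and the share of all genes at that minimum is not given here. With each replicate number left out in turn, the fits had fewer libraries. Genes with a larger fall in the dark then ranged from 4 to 9 (3.88% to 4.40% of all genes). Genes with a rhythm difference ranged from 2 to 7 (10.3% to 14.3%). Genes called lower over the day stayed at 25 and those called higher at 2 in these 3 fits, rhythmic genes were 18 at 35 DAS and 14 to 17 at 21 DAS, and counts of lower genes at a single time ran from 16 to 25. The replicate block changed 1 count, the rhythm difference, from 12 to 11 genes, as PSAG was lost (adjusted p = 0.0584 in limma), and moved no other call. With library weights 16 genes had a larger fall in the dark (12.6% of all genes) and 15 a rhythm difference (41.9%). With no filter on low values the counts were 11 (6.79%) and 9 (20.2%). The cause was not tested. Further alternatives were chosen after seeing the data. With ZT17 as the one dark time 1 gene had a larger fall in the dark (10.3% of all genes), and with ZT21 11 (4.15%). Without replicate 1 of ZT21 at 35 DAS 9 had it (7.40%) and 9 a rhythm difference (24.1%). Leaving out that library moved the median age effect at ZT21 to −1.67. The ratio of PSAE1 to PSAE2 differed by −1.07 to −0.952 and that of PSAH1 to PSAH2 by 0.530 to 0.597 over all alternatives run. Depth limits AT2G07688 and AT4G37230, which rest on few fragments, and less so AT1G69680, at 4.61 to 12.4 FPKM. The call of AT1G69680 as higher was lost after rescaling. Overlapping loci limit AT1G51400, PSBR, PSAE2 and PSAH1. Rhythm shapes rest on 6 times in 1 day.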
